A study of Homo sapiens with 23 samples.

Results

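H4K12 propionylation (H4K12pr) and H4K12 acetylation (H4K12ac) were compared gene by gene in SW480, a long-established cell line from a human colon carcinoma, after treatment with 10 mM sodium propionate (NaPr) for 12 to 16 h. The comparison used 4 of the 23 libraries of the series, chosen by their labels: 2 replicates immunoprecipitated with an antibody to H4K12pr and 2 with an antibody to H4K12ac, all from cells of the same treatment. The readout was chromatin immunoprecipitation with sequencing (ChIP-seq), in which the DNA bound to a marked histone is pulled down and sequenced, and each library was represented by its own list of enriched regions. A gene was called held by H4K12pr alone when a region overlapped it in both propionyl libraries and in neither acetyl library, and held by H4K12ac alone in the reverse case. This was asked at the transcription start site (TSS, 1 kb either side of the gene's start) and over the gene body, for the 38899 protein-coding and long noncoding RNA (lncRNA) genes of GENCODE release 44 on the autosomes, X and Y. All coordinates are on GRCh38. A gene without a region is one at which none was called, which is not the same as a gene without the mark.

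Lysine 12 of histone H4 lies in the tail that protrudes from the nucleosome. Acetylation, made from acetyl-CoA by acetyltransferases such as HAT1, KAT5 and EP300, removes its positive charge and is typical of active promoters and enhancers. Propionylation puts a slightly longer acyl group, made from propionyl-CoA, on the same lysine, so that a single H4 tail can carry only one of the marks at that position. Propionate is a short-chain fatty acid that gut bacteria release from dietary fiber, and colon cells convert it to propionyl-CoA. Acetyl-lysine is bound by bromodomain proteins, and many of the enzymes that add or remove acetyl groups also act on propionyl groups.

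The propionyl lists held 165556 and 122532 regions and the acetyl lists 144275 and 130361, so the numbers of regions overlapped. The propionyl regions were wider, with medians of 513 and 490 bp against 256 and 246 bp, and covered 114 and 81.6 Mb against 44.9 and 38.2 Mb. The shortest region was 340 bp in each propionyl list and 185 and 180 bp in the acetyl lists. A background fragment density was taken from each list as its lowest solved background over the width of its shortest region. It was 8.38 and 5.66 per kb for H4K12pr, 25.1 and 28.7 per kb for H4K12ac and 13.6 per kb for the NaPr input, the sheared chromatin without immunoprecipitation. The propionyl values were the lower, but the control of each list is not given, so this measure does not settle the depth of the libraries. The names of the lists carried 1 date for both propionyl libraries and another for both acetyl libraries, without saying what it marks, and mark and date cannot be told apart. Labels did not say whether replicates came from separate cultures, so the spread between them may be technical.

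Propionyl regions were found at more promoters than acetyl regions in these cells. A region overlapped the TSS window of 48.2% and 41.3% of genes in the H4K12pr libraries and of 26.9% and 21.9% in the H4K12ac libraries, so the groups did not overlap. The mean difference was 20.3 percentage points (44.7 ± 4.89 against 24.4 ± 3.48, SD, n = 2 each, two-sided exact permutation p = 0.333, the smallest p that 2 against 2 libraries allow). The covered part of the TSS window averaged 22.5% and 18.5% for H4K12pr and 6.13% and 4.33% for H4K12ac, a difference of 15.3 percentage points (exact permutation p = 0.333). In untreated cells, whose lists carry the same date as the acetyl NaPr lists, H4K12ac regions overlapped the TSS of 48.9% and 48.6% of genes. For the neighboring mark H3K18 in NaPr, the propionyl libraries reached 41.8% and 37.0% of genes and the acetyl libraries 50.5% and 40.7%, and these groups overlapped (mean difference -6.13 percentage points, exact permutation p = 0.667).

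Around the TSS, each profile rose on both sides of a dip, and the higher side differed between the marks, by little for H4K12ac. The share of protein-coding genes covered peaked 350 bp downstream of the TSS at 37.5% and 31.2% in the H4K12pr libraries. On the upstream side it reached 30.9% and 26.5%, at 450 bp. In the H4K12ac libraries the share peaked 450 bp upstream, at 9.31% and 6.81%. Downstream it came near these values, with 9.21% at 350 bp in replicate 1 and 5.94% at 550 bp in replicate 2. Over all genes, mean coverage of the 1 kb downstream exceeded that of the 1 kb upstream by 3.98 and 2.89 percentage points for H4K12pr. For H4K12ac the excess was 0.979 and 0.466 (exact permutation p = 0.333). As a ratio, downstream over upstream coverage was 1.19 and 1.17 for H4K12pr and 1.17 and 1.11 for H4K12ac, and these groups overlapped. Relative to the level at the far ends of the protein-coding profile, the peaks reached 3.55 and 4.13 times for H4K12pr and 3.82 and 3.63 times for H4K12ac, and these groups overlapped.

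**Figure D1:**
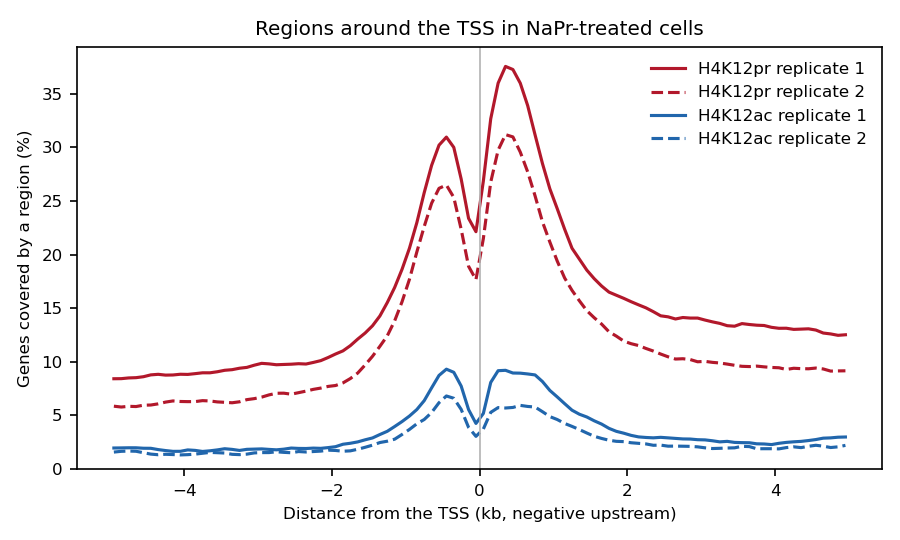
Share of protein-coding genes covered by a region (%, vertical axis) in bins of 100 bp by distance from the TSS (kb, negative upstream) in each library. Replicate 1 is drawn as solid and replicate 2 as dashed lines. Both H4K12pr lines lie above both H4K12ac lines over the whole range, and each library shows a dip at the TSS itself.

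At the TSS, H4K12pr alone held 5253 genes (3631 protein-coding and 1622 lncRNA), which is 13.5% of the genes tested, and H4K12ac alone held 293 (136 and 157), or 0.753%. H4K12pr thus made up 94.7% of the one-sided genes (95% Wilson interval 94.1 to 95.3%, covering counting error over genes, which are not independent). A further 4914 genes held a region in all 4 libraries and 15891 in none. With every list limited to the 122532 regions with the highest −log10 p (column 8 of the lists), H4K12pr alone held 5256 genes (13.5%) and H4K12ac alone 261 (0.671%), a share of 95.3%. Of the genes called with all regions, 4935 of the propionyl and 231 of the acetyl genes were called again with equal numbers, or 93.9% and 78.8%. Replicates shared fewer genes for the acetyl mark: the 14180 genes found in both propionyl libraries were 75.7% and 88.3% of those in each, and the 5649 found in both acetyl libraries were 54.1% and 66.2%. When a region in either replicate was enough for one mark, with none in the other mark, the counts were 9670 and 2392 and the propionyl share 80.2%. Single libraries moved the counts: the propionyl count was 8428 without H4K12pr replicate 2 and 7987 without H4K12ac replicate 1. The acetyl count was 580 and 448 without H4K12pr replicates 1 and 2, and 1284 and 1401 without H4K12ac replicates 1 and 2. The acetyl count was also 158 among regions with q under 0.05, and 578 without regions that overlap an input list.

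The regions behind the propionyl genes had higher fold enrichment than those behind the acetyl genes. Their median fold enrichment, the fragment pileup at the summit over the local background as the authors' caller gave it, was 3.88 and 4.01 for H4K12pr and 2.60 and 2.53 for H4K12ac. The highest values were 37.8 and 37.9 for H4K12pr and 13.4 and 14.6 for H4K12ac. Folds depend on the depth of a library and its control, so they are given to describe regions and not tested. The summit of the strongest region lay within the window for 83.0% and 84.6% of propionyl genes and 89.4% and 92.2% of acetyl genes. It lay downstream of the TSS for 58.9% and 57.0% of propionyl genes, and for 51.5% and 50.9% of acetyl genes. In H4K12pr replicate 1, 31.4% of these summits were in an intron of the gene and 25.7% in one of its exons, and in H4K12ac replicate 1 the shares were 27.3% and 21.5%.

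Ranked by the lower of both replicate folds, the first protein-coding gene was GSG1, a germ cell gene on chr12:13083532-13103683, minus strand, level with ENSG00000289766. Its H4K12pr fold was 35.5 in replicate 1 and 37.9 in replicate 2, and no H4K12ac region touched its TSS window in either library. The summit lay in an intron, 1919 and 1863 bp downstream of the TSS, and the same region gave the call of ENSG00000289766, an overlapping protein-coding gene. Neither gene kept its call without regions that overlap a region of any input list. ALLC, an allantoicase homolog on chr2:3658200-3702671, had folds of 35.1 and 30.6, with summits in an intron 2065 and 2204 bp downstream of the TSS. HCFC1R1, a regulator of the transcriptional coregulator HCFC1, followed with 29.9 and 25.3. The H4K12pr region covered 61.1% and 52.0% of its TSS window, and both summits were in an exon.

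MUC2, which codes for the main secreted mucin of the colon (chr11:1074875-1110511), had an H4K12pr fold of 18.7 and 22.1. Its summits, between genes, were at -2070 and -2004 bp from the TSS, and the regions covered 88.8% and 54.0% of the TSS window. No acetyl region touched the MUC2 window or body in either NaPr library, whereas both untreated H4K12ac libraries held a region at its TSS. PFKFB4, which sets the level of a glycolytic regulator, had folds of 18.6 and 18.7, with the summits in an intron of COL7A1 upstream of it. COX6B2, a testis form of a cytochrome c oxidase subunit, had 17.3 and 20.6. For MZB1, a chaperone of antibody-secreting cells, the folds were 22.3 and 17.1, with the summits in an exon of the neighboring gene PROB1. WDR86, a WD-repeat gene, had 15.7 and 28.4, and it was the only gene among these whose window held no H4K12ac region in either untreated library.

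DYRK1B, a kinase that holds cells in quiescence, had its summit 251 and 219 bp downstream of the TSS, with folds of 15.3 and 19.7. RSPH3, a radial spoke protein of cilia, had 18.2 and 14.96. The divergent genes FUZ, a planar polarity gene needed for cilia, and MED25, a Mediator subunit, shared a region between them with folds of 14.9 and 15.1. Likewise RAB36, a small GTPase, and RSPH14, another radial spoke gene, shared a region with 13.8 and 21.2. The 15 named genes rest on 12 distinct regions of 1019 to 6969 bp. In 9 of the 15 both summits lay outside the window, so a wide propionyl region reached in from the side, and only 4 of the 15 stayed one-sided with a window of 2 kb either side. Of the 15, 13 held H4K12ac at the TSS in both untreated libraries and 15 held H3K18pr in both NaPr libraries, and none held a NaPr input region in the window. Without regions that overlap any input list, 11 of the 15 kept the call, and GSG1, ENSG00000289766, MUC2 and COX6B2 lost it.

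The promoters of the first 3 of these genes whose RefSeq promoter lay inside the region in both propionyl libraries are printed to show the sequence beneath the mark. They run from 250 bases before to 50 after the RefSeq start on the gene's strand (GRCh38.p14), at chr2:3657950-3658249 (plus), chr6:159000138-159000437 (minus) and chr19:49818039-49818338 (plus). Capitals mark the GC box, searched as the letters GGGCGG, and the CCAAT box, searched by its name. They also mark the TATA box, searched as TATAAA, and the site of the AP-1 factors, searched as TGANTCA with N for any base. Both strands were searched, and overlapping matches were kept.
ALLC: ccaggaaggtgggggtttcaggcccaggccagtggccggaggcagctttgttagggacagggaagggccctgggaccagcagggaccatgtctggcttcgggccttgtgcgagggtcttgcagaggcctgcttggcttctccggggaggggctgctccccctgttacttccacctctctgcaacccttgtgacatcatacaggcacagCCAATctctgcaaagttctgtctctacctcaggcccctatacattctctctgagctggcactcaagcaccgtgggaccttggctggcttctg
RSPH3: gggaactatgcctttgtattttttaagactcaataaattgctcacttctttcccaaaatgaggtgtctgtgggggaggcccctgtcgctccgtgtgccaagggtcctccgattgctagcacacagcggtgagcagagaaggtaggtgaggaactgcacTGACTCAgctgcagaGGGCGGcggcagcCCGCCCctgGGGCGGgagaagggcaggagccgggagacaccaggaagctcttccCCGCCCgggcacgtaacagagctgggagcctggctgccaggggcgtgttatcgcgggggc
MED25: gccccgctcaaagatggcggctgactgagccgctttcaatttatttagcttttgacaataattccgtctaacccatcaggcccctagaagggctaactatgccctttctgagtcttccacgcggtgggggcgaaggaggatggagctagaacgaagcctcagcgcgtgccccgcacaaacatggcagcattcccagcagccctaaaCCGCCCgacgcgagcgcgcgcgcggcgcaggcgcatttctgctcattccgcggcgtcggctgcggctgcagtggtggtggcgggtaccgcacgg
ALLC carried 5 CpG pairs and 1 CCAAT, RSPH3 15 CpG pairs, 4 GC boxes and 1 AP-1 site, and MED25 30 CpG pairs and 1 GC box. Their GC content was 60.7%, 61.3% and 61.7%.

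FBXO33, a substrate adaptor of a ubiquitin ligase, led the acetyl genes (chr14:39397684-39432466, minus strand). Its H4K12ac fold was 13.4 in replicate 1 and 14.6 in replicate 2, with the summit in an exon 130 and 168 bp downstream of the TSS, and no propionyl region touched its window or body. ATRNL1, an attractin-like membrane protein (chr10:115093365-115948999, plus strand), had 7.95 and 7.19 with summits between genes at -169 and -187 bp from its TSS. Below these the folds were lower. PKIA, an inhibitor of protein kinase A, had 3.96 and 5.28. PIRT, a regulator of the TRPV1 channel in sensory neurons, had 3.75 and 3.58, and no library of untreated H4K12ac, H3K18ac in either condition or H3K18pr held a region at its TSS.

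RAB2B, a GTPase of the secretory pathway, and TOX4, a chromatin protein, shared a region in an exon of RAB2B with folds of 4.26 and 3.42. FKBP8, a mitochondrial chaperone, had 3.44 and 3.42, and GNL3, the nucleolar GTPase nucleostemin, 3.24 and 4.03. IFT52, which carries cargo along cilia, had 3.30 and 3.23. The remaining named genes had folds between 2.90 and 4.04. They were SRPX2, a secreted protein, LTA4H, which makes leukotriene B4, RAP1A, a Ras-related GTPase, WNT8B, a Wnt ligand, TRIM39-RPP21, a readthrough gene, and MLLT1, a reader of acyl-lysine. Of the 15 acetyl genes, 11 held H4K12ac in both untreated libraries, 5 held H3K18pr in both libraries, and 4 (PKIA, IFT52, SRPX2 and TRIM39-RPP21) held a NaPr input region in the window. Their regions were 194 to 627 bp wide. With a window of 2 kb, 9 of the 15 stayed one-sided.

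For FBXO33 and ATRNL1, the part shared by the regions of both acetyl libraries is printed on the gene's strand, limited to its middle 300 bases where longer, from hg38. They lie at chr14:39432183-39432482 (minus) and chr10:115093086-115093310 (plus), and the capitals mark the same letters as above.
FBXO33: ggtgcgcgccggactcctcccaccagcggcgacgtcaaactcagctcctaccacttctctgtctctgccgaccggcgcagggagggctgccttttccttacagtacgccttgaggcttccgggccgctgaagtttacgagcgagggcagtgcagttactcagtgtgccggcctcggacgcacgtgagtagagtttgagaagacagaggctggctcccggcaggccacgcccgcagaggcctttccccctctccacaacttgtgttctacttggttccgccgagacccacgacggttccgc
ATRNL1: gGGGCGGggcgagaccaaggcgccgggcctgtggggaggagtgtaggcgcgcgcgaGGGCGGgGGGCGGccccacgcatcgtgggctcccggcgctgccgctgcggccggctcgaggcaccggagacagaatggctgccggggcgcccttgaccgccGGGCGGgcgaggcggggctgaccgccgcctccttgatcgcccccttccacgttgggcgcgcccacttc
FBXO33 held 26 CpG pairs and none of the motifs, and ATRNL1 32 CpG pairs and 4 GC boxes. The ATRNL1 stretch had a GC content of 78.7%, against 63.3% for FBXO33. The wider TSS windows of the 293 acetyl genes had a lower median GC content, 46.3%.

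**Figure D2:**
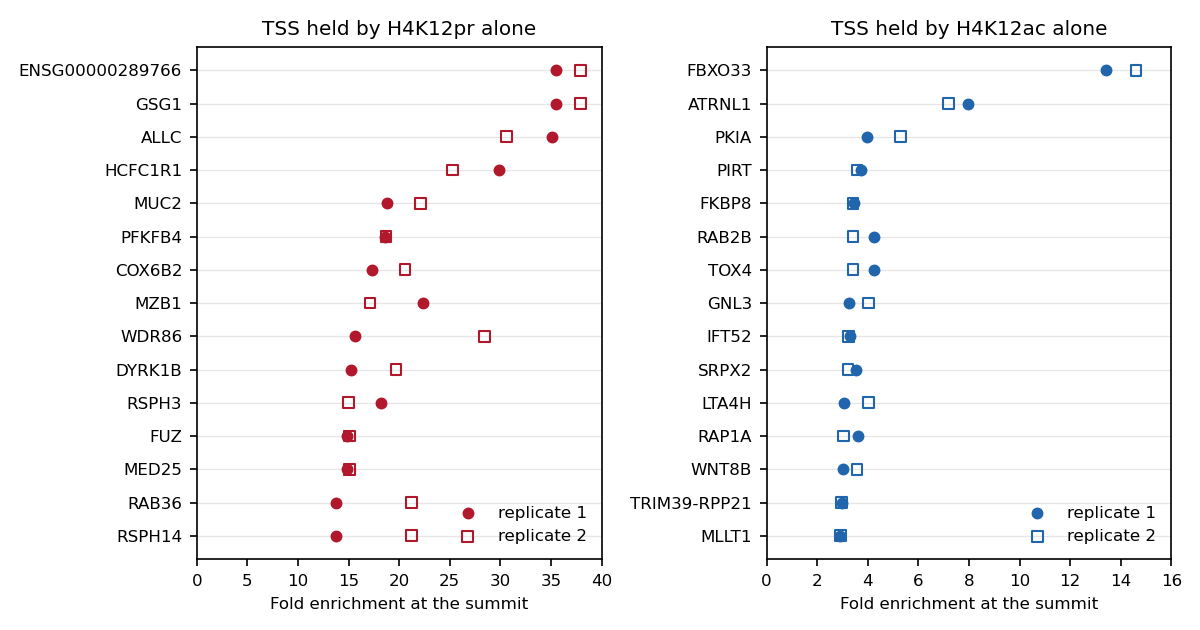
Fold enrichment (horizontal axis, linear, from 0) of the strongest region at the TSS of the 15 named genes held by H4K12pr alone (left) and by H4K12ac alone (right), with replicate 1 as filled circles and replicate 2 as open squares. Propionyl values run from 13.8 to 37.9, while acetyl values lie between 2.90 and 5.28 except at FBXO33 and ATRNL1, and the axes of the panels differ.

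The genes held by either mark alone had promoters of different base composition. The 2 kb around the TSS had a median GC content of 58.0% (interquartile range 53.1 to 62.8%) in propionyl genes and 46.3% (41.6 to 52.2%) in acetyl genes. It was 55.4% where all 4 libraries held a region, 44.5% where none did and 51.6% over all genes. The ratio of observed to expected CpG exceeded 0.6 in 60.2% of propionyl genes, 20.1% of acetyl genes and 36.2% of all genes. GC content also differed between the lists as a whole: the median region had 51.2% and 49.0% GC in the H4K12pr lists, 46.8% and 45.9% in the H4K12ac NaPr lists and 37.0% in the NaPr input list. The part that GC-dependent recovery plays in the TSS calls was not tested.

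RefSeq promoters were matched by symbol for 3216 propionyl and 118 acetyl genes. A GC box was found in 72.0% of the propionyl promoters and 43.2% of the acetyl promoters, against 54.2% of the 19061 promoters matched to all genes. It was found in 65.8% where all 4 libraries held a region, and in 44.6% of all 27305 RefSeq promoters. TATAAA was found in 4.54% and 17.8%, against 10.1% of the promoters matched to all genes, and TGANTCA in 4.17% and 7.63%, against 6.73%. CCAAT, at 37.1% and 28.0%, compares with 36.2% of the promoters matched to all genes. Protein-coding genes made up 69.1% of the propionyl and 46.4% of the acetyl genes, and 51.5% of all genes. By chromosome, H4K12pr alone held 23.6% of the genes on chromosome 19, 20.4% on 17 and 20.3% on 20, down to 5.81% on 18 and 0 of 173 on Y.

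Most genes held by H4K12pr alone in NaPr carried acetyl regions in other libraries. Untreated H4K12ac held the TSS of 81.8% of them in both of its libraries, against 43.9% of all genes. H3K18ac held 86.3% untreated and 68.5% in NaPr, against 45.1% and 37.1% of all genes, and H3K18pr held 60.02% against 31.4%. Only 127 of the 5253 genes (2.42%) had no region in any library of untreated H4K12ac, untreated H3K18ac or H3K18ac in NaPr, and 11 of these held H3K18pr in both libraries. The NaPr input list touched 7.92% of the propionyl genes and 7.33% of all genes, and the untreated input list touched 25.8% against 13.04%. For the 293 acetyl genes, untreated H4K12ac held 46.4%, untreated H3K18ac 35.8%, H3K18ac in NaPr 30.0%, H3K18pr 15.4% and the NaPr input 10.9%. These shares were above those of all genes for untreated H4K12ac and the NaPr input, and below them for the other 3. The untreated input touched 8.87% of the acetyl genes.

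**Figure D3:**
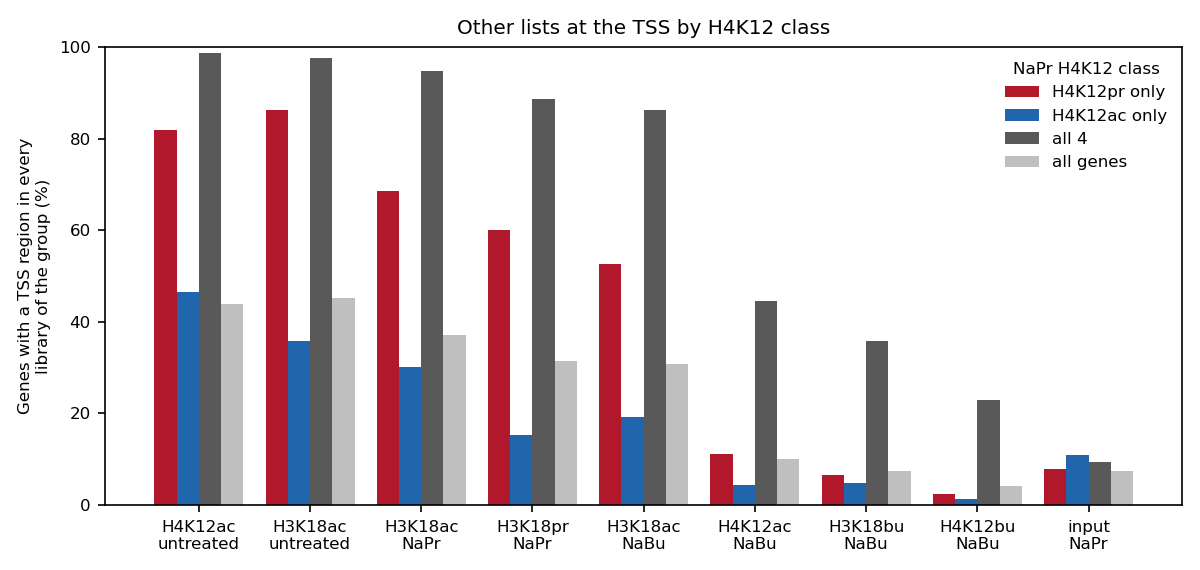
Share of genes (%, vertical axis from 0) whose TSS window held a region in every library of each other group, for genes held in NaPr by H4K12pr alone, by H4K12ac alone, by all 4 libraries, and for all genes. Bars of the propionyl genes reach 81.8% for untreated H4K12ac and 86.3% for untreated H3K18ac, and those of the acetyl genes 46.4% and 35.8%.

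Some one-sided genes had regions of the other mark nearby, outside the window. In both acetyl libraries a region lay within 2 kb of the TSS for 5.63% of the propionyl genes, within 5 kb for 22.7% and within 10 kb for 54.0%. Over all 25561 genes without H4K12ac in the window the shares were 2.21%, 12.5% and 30.9%. Propionyl regions lay as near to the TSS of 9.56%, 29.4% and 52.2% of the acetyl genes, against 2.40%, 11.9% and 23.4% of the 18283 genes without H4K12pr in the window. Of the propionyl genes, 2328 (44.3%) held regions of all 4 libraries over the body and 1439 (27.4%) were held by H4K12pr alone there as well. Of the acetyl genes, 52 (17.7%) were held by H4K12ac alone over the body, and 99 (33.8%) by all 4 libraries.

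Over the gene body, H4K12pr alone held 2730 genes (7.02% of those tested) and H4K12ac alone 844 (2.17%), so that 76.4% were propionyl (95% Wilson interval 74.96 to 77.7%). Equal numbers of regions gave 2794 (7.18%) and 923 (2.37%), a share of 75.2%. All 4 libraries held 14191 genes. The propionyl genes were short, with a median length of 5016.5 bp, and the acetyl genes long, at 31417.5 bp, against 14947 bp for all genes. Single libraries moved these counts too: the propionyl count was 4665 without H4K12pr replicate 2 and 4844 without H4K12ac replicate 1. The acetyl count was 1979 and 1386 without H4K12pr replicates 1 and 2, and 1895 and 1907 without H4K12ac replicates 1 and 2.

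NOTCH1, the receptor that keeps intestinal progenitors dividing (chr9:136494433-136546048), led the propionyl bodies, with 21 and 16 H4K12pr regions over 39.1% and 17.8% of its length and no acetyl region. MICALL2, an adaptor for junction recycling, had 14 and 12 regions over 53.7% and 30.4%. TCEA2, an elongation factor of RNA polymerase II, had 14 and 11, and UCKL1, a uridine kinase-like gene, had 12 and 10 over 66.4% and 42.2%. NECAB3, a calcium-binding protein, had 10 and 10, and LMNB2, a nuclear lamin, 10 and 12. ANKRD39, SUSD3, C15orf39 and ENSG00000269469 completed the list with 8 to 12 regions in each library. In each of these 10 genes the acetyl libraries had 0 regions. The NaPr input list had 1 region in NOTCH1, TCEA2, C15orf39 and ENSG00000269469 and 0 in the other 6, and all 10 kept the call without regions over an input list.

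The acetyl bodies were covered far less. PEX5L, a channel partner in neurons on chr3:179794958-180037053, had 8 and 13 H4K12ac regions, which covered 0.944% and 1.36% of its 242096 bp, and no propionyl region. SEMA3D, a guidance ligand, had 8 and 10 regions, TMEFF2, a transmembrane protein, 9 and 8, and ASTN1, a neuronal adhesion protein, 6 and 5. The NaPr input list had 4 regions in PEX5L, 13 in SEMA3D, 16 in TMEFF2 and 8 in ASTN1, more than either acetyl list in the last 3. CAT, which codes for catalase, had 4 and 5 acetyl regions over 3.36% and 5.17% of its 33127 bp with no input region. CLDN2, a pore-forming claudin of leaky epithelia, had 4 and 5 over 2.74% and 3.67%, with 1 input region. MARCHF11, ABCB11 and PDE8B had 4 to 6 regions in each acetyl library and 3 to 6 input regions. All 10 acetyl bodies kept the call without regions over an input list, as the propionyl bodies did. Of the 10 acetyl bodies, 2 stayed one-sided when every list was limited to its 20000 strongest regions, compared with 9 of the 10 propionyl bodies. That setting was chosen after seeing the data.

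By coverage rather than presence, the lower propionyl library exceeded the higher acetyl library over 15158 gene bodies (39% of genes), and the reverse held for 2055 (5.28%). Mean body coverage was 11.8% and 8.65% for H4K12pr and 3.27% and 2.56% for H4K12ac, a difference of 7.29 percentage points (exact permutation p = 0.333). The widest gap among protein-coding genes of at least 10 kb was at MAFK, a small MAF partner of AP-1-like factors, with 91.8% and 89.2% of its body under H4K12pr and 15.3% and 12.3% under H4K12ac. PDLIM4, an actin-associated gene, had 89.4% and 89.2% against 17.5% and 2.11%. SLC7A5, which imports large neutral amino acids (chr16:87830023-87869507), had 76.9% and 71.7% against 2.42% and 2.56%, and at TNFRSF1A, the main TNF receptor, the values were 72.5% and 74.9% against 8.35% and 6.81%. Adhesion and cytoskeletal genes followed, with ITGB4, an integrin of hemidesmosomes, at 81.2% and 76.7% against 17.0% and 12.8%. CD9, a tetraspanin, had 88.0% and 84.1% against 24.8% and 23.3%, and ARPC1B, of the Arp2/3 complex, 72.3% and 62.8% against 2.43% and 3.85%. ENSG00000257184, WBP2 and TMEM184A completed the first 10, with propionyl coverage between 63.4% and 78.9%.

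Where acetyl coverage was higher, the gaps were small. TOMM34, a mitochondrial import chaperone, had 13.2% and 11.4% of its body under H4K12ac and 2.22% and 5.25% under H4K12pr. POMP, the proteasome maturation factor, had 20.8% and 16.5% against 11.5% and 12.2%, and MCM6, a subunit of the replicative helicase, 10.1% and 10.4% against 5.96% and 4.84%. GTF3C3, of the RNA polymerase III factor TFIIIC, had 8.57% and 8.005% against 3.73% and 3.79%. RECQL, a DNA helicase, had 7.41% and 5.80% against 1.46% and 2.13%, with 4 NaPr input regions in its body. PRSS48, GDF11, FBXO38, TM7SF3 and NR2F1 had gaps between 3.93 and 4.37 percentage points.

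**Figure D4:**
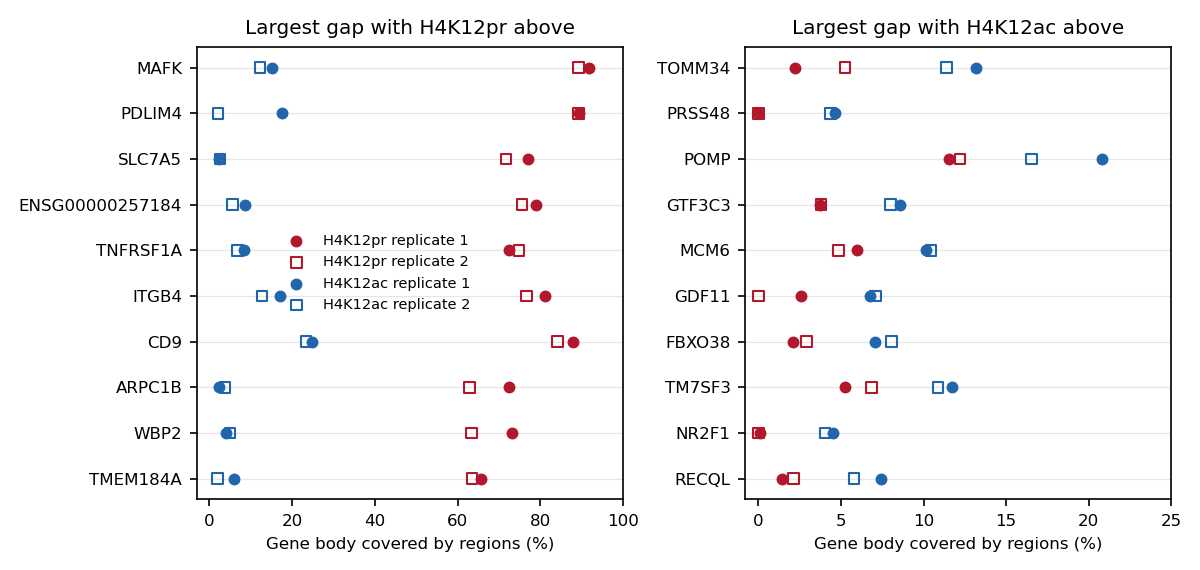
Share of the gene body covered by regions (%, horizontal axis) in each of the 4 libraries for the 10 protein-coding genes of at least 10 kb with the widest gap in favor of H4K12pr (left) and of H4K12ac (right). The gaps reach 73.9 percentage points on the left, at MAFK, and 6.13 on the right, at TOMM34, and the axes of the panels differ.

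Genes were then grouped in 21 lists by function. Several of the lists (cadherin, unfolded protein response, calcium channels, growth factor receptors, Wnt, TGF-beta and AP-1) follow themes that the study drew from these libraries, so their counts are not independent evidence. The share held by H4K12pr alone at the TSS exceeded the 13.5% of all genes in 15 of the 21 lists and the 18.1% of all protein-coding genes in 11. In 16 lists no gene was held by H4K12ac alone. The median body coverage was higher for H4K12pr in 20 of the 21. Over all genes the median share of the TSS window covered, averaged over replicates, was 8.20% for H4K12pr and 0 for H4K12ac.

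Histone deacylase genes, a list that also takes in complex subunits, stood at the upper end. Of these 34 genes, 15 (44.1%) were held by H4K12pr alone, 4 by all 4 libraries and 0 by H4K12ac alone. With equal numbers of regions, H4K12pr alone held 13. Their median TSS coverage was 31.3% for H4K12pr and 0 for H4K12ac. MTA2, a subunit of the NuRD deacetylase complex, had H4K12pr folds of 7.25 and 8.23, SIRT6, a nuclear sirtuin, 6.50 and 5.81, HDAC1, the class I deacetylase, 5.40 and 5.13, and HDAC10 5.20 and 5.13. Of the genes for histone acyltransferases and their partners, 5 of 43 (11.6%) were one-sided for propionyl and 10 were held by all 4. MSL3, of the MSL acetyltransferase complex, had 10.4 and 12.0, CREBBP, the p300 paralog, 4.68 and 4.79, MSL1 6.73 and 4.40, and TADA2B, of the SAGA complex, 4.16 and 7.52. Among 43 reader genes, 8 (18.6%) were one-sided for propionyl and 9 were held by all 4. BRD9 had 5.49 and 7.33, BAZ2A 5.57 and 5.70, SMARCA4 5.20 and 4.79 and DPF2 4.46 and 3.88. MLLT1, whose YEATS domain binds acyl-lysine, was the 1 reader held by H4K12ac alone, at 2.90 and 2.92. In short-chain acyl-CoA metabolism the count was 10 of 56 (17.9%) for propionyl and 0 for acetyl. The propionyl shares of the reader and acyl-CoA lists were near the 18.1% of all protein-coding genes. PCCB, a subunit of the enzyme that consumes propionyl-CoA, had 4.23 and 5.15, ACAA1 5.99 and 5.18, PDHA1 3.58 and 4.11 and ACAA2 3.90 and 3.42.

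In the unfolded protein response of the endoplasmic reticulum, 15 of 46 genes (32.6%) were held by H4K12pr alone and 11 by all 4, with a median TSS coverage of 43.98% for H4K12pr and 0.0375% for H4K12ac. Among those held by H4K12pr alone, the chaperones HSP90B1 (7.64 and 8.35), HYOU1 (6.76 and 5.81) and CANX (5.23 and 8.01) ranked first by fold. The sensor kinase EIF2AK3 (5.18 and 6.35) came next. In the cell cycle list, 17 of 61 (27.9%) were one-sided for propionyl, with the kinase WEE1 at 6.13 and 6.34, the licensing factors MCM2 at 5.47 and 7.41 and CDC6 at 5.53 and 4.84, and the inhibitor CDKN1C at 6.76 and 4.79. The zinc finger genes of chromosome 19, chosen by symbol, gave 74 of 246 (30.1%) and 0 for acetyl. Over all genes of that chromosome the propionyl share was 23.6%. ZNF772 had 12.993 and 12.994, ZNF497 14.4 and 11.4, ZNF20 13.7 and 9.83 and ZNF761 7.28 and 8.21. Zinc finger genes lie in clusters of similar sequence, where reads may not map to 1 copy. At the Kruppel-like and SP factors the count was 7 of 27, with KLF2, a factor of quiescence, at 18.97 and 12.2, SP3 at 7.97 and 7.09, KLF11 at 5.64 and 5.81 and SP2 at 5.70 and 5.22.

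Among Wnt and beta-catenin genes, 15 of 67 (22.4%) were held by H4K12pr alone, 8 by all 4 and 0 by H4K12ac alone, and the median TSS coverage was 13.5% and 0. The feedback inhibitor AXIN2 had 7.29 and 6.82, the receptor FZD5 6.24 and 6.84, the nuclear effector TCF7 5.52 and 5.25 and the adaptor DVL1 4.95 and 5.02. Growth factor receptor genes gave 13 of 49 (26.5%), with MST1R at 7.10 and 6.95, EPHA4 at 6.24 and 7.18, the EGFR ligand AREG at 5.62 and 4.37 and FLT1 at 4.98 and 4.01. For TGF-beta genes the count was 10 of 45 (22.2%), with INHBB at 10.1 and 7.52, BMP7 at 8.004 and 5.53, TGFB1 at 4.42 and 5.13 and INHBA at 3.98 and 4.31. Of the calcium channel genes, 9 of 50 (18%) were one-sided for propionyl, near the 18.1% of all protein-coding genes. For acetyl 1 was one-sided, CACNA1D, at 2.55 and 2.13. CACNA1G led the propionyl genes at 5.98 and 5.92, then CACNB3 at 4.32 and 4.16, ITPR1 at 4.42 and 4.10 and TRPV2 at 3.84 and 4.24. The CACNA1G regions covered 4.65% and 8.70% of the TSS window, and no H3K18pr library held a region there.

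Of the cadherin and junction genes, 9 of 47 (19.1%) were held by H4K12pr alone and 11 (23.4%) by all 4 libraries. Over all protein-coding genes, H4K12pr alone held 18.1%. JUP, or plakoglobin, had 7.92 and 8.37, the scaffold AFDN 5.62 and 5.84, CLDN3 5.19 and 7.92 and CDH1, which codes for E-cadherin, 7.02 and 4.79. The acetyl genes were 2, of which CTNND1, or p120-catenin, was one-sided under both settings with 2.85 and 2.34. Intestinal differentiation genes gave 9 of 56 (16.1%), with the mucins MUC2 (above) and MUC1 at 13.5 and 12.3, the master factor CDX2 at 5.03 and 7.69 and the trefoil peptide TFF2 at 4.50 and 4.83. LYZ, the lysozyme of Paneth cells, was held by H4K12ac alone at 2.48 and 3.25.

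In 8 of the 21 lists, the junction, acyltransferase and reader lists among them, more genes were held by all 4 libraries than by H4K12pr alone. All 4 libraries held 44 of 79 cytosolic ribosomal protein genes (55.7%), 27 of 51 proteasome genes (52.9%), 16 of 31 AP-1 and immediate early genes (51.6%) and 13 of 33 Mediator genes (39.4%), against 12.6% of all genes. H4K12pr alone held 9, 6, 4 and 6 of them, and H4K12ac alone 0 in each. Median TSS coverage was 70.4% for H4K12pr and 18.6% for H4K12ac in the ribosomal protein genes, and 51.7% and 13.6% in the proteasome genes. Among these RPL8 had H4K12pr folds of 11.4 and 12.99, FAU 11.4 and 8.29, RPL13A 6.78 and 5.91 and RPS16 5.35 and 7.39. PSMG3, a proteasome assembly factor, had 5.59 and 5.11, the immunoproteasome subunit PSMB10 4.94 and 5.81, PSMB3 3.85 and 4.00 and PSMD9 3.23 and 3.66. The stress-induced IER5 had 8.54 and 5.69, MAX, the partner of MYC, 3.38 and 3.42 and BATF3 3.12 and 4.79. Of the Mediator genes, MED31 had 10.2 and 11.6, MED12L 6.19 and 5.85 and CDK19 4.94 and 4.79, beside MED25. Among the H4K12pr genes named from the lists, SMARCA4, ZNF20, CACNA1G, FAU and RPS16 held a NaPr input region in the window. A region of the untreated or NaBu input lay in the window of MTA2, HDAC10, DPF2, PCCB, EIF2AK3, WEE1, MCM2, CDC6, ZNF761 and FZD5. The same was true of TCF7, INHBB, MST1R, CLDN3, CDX2, MUC1, MAX, PSMG3, RPL13A and FAU. Both summits lay outside the window at AXIN2, FZD5, DVL1, CACNA1G, CDC6, CDH1, BAZ2A, CDK19, MUC1 and MUC2.

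**Figure D5:**
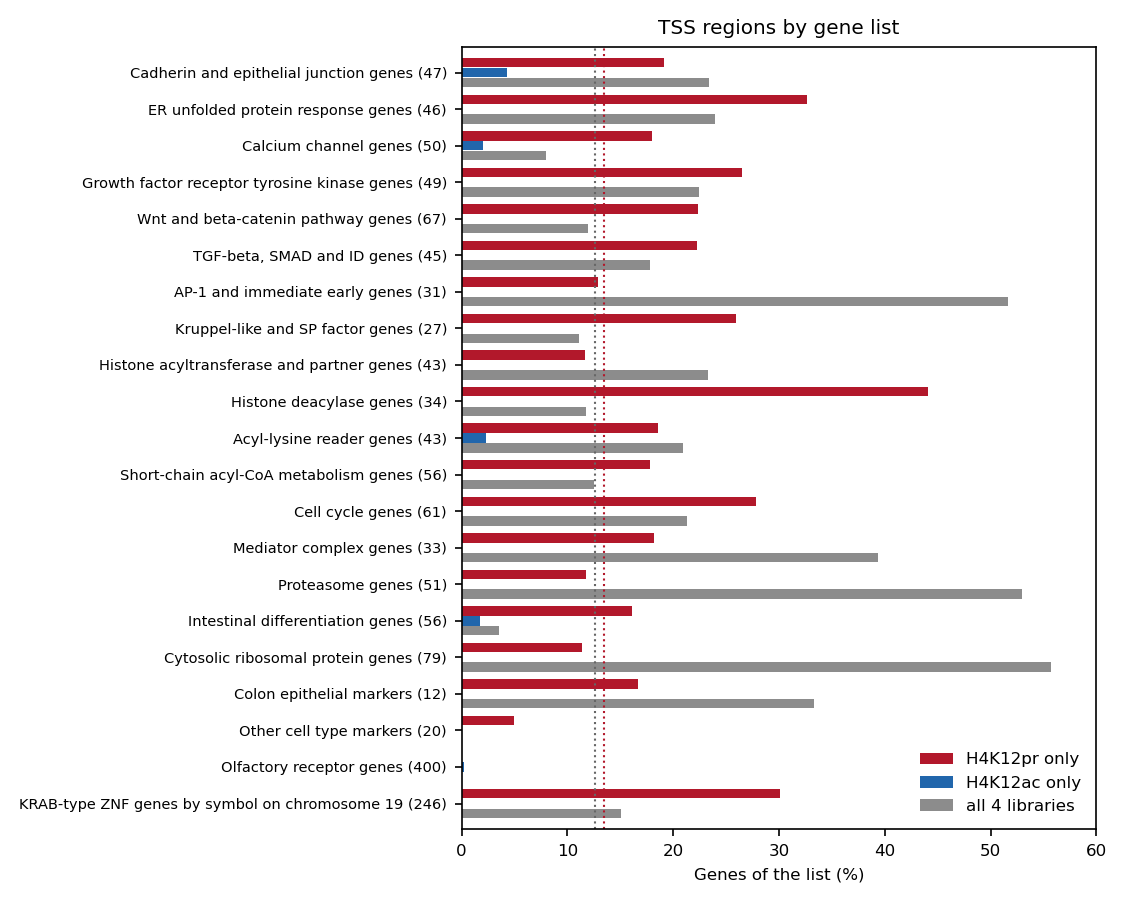
Share of the genes of each list (%, horizontal axis from 0, with the number of genes in brackets) whose TSS was held by H4K12pr alone, by H4K12ac alone, or by all 4 libraries. The dotted lines mark the shares over all genes, 13.5% for H4K12pr alone and 12.6% for all 4, and the longest propionyl bar is that of the histone deacylase genes at 44.1%.

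The markers of the line's tissue were checked in the same way. Of 12 colon epithelial markers, 4 were held by all 4 libraries, 2 (CDX2 and CDH1) by H4K12pr alone and 2 by none. Of 20 markers of other cell types, none was held by all 4 libraries and 11 by no library, and CD14, at 3.74 and 3.32, was the 1 held by H4K12pr alone. Olfactory receptor genes, which epithelial cells do not normally use, were held by none of the 4 libraries in 349 of 400 (87.3%). H4K12pr alone held 0 of the 400 and H4K12ac alone held OR52E4, with folds of 3.40 and 2.60.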

How the data were processed

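Chromatin from SW480 cells was immunoprecipitated and sequenced in paired ends. Per the labels and the study's methods, the authors aligned reads to GRCh38.p13 with Bowtie2 (2.3.1), called regions per library with MACS2 (2.1.0) in an ENCODE-type pipeline at p 0.01 and removed blacklisted regions. Cutadapt (1.8.1) and bcl2fastq (2.17.1) are also named in the submitters' processing notes. The control used for each list is not given in the sources used here. Each deposited region carries a fold enrichment (ratio of pileup to local background) and −log10 p and q values from MACS2, as the authors deposited them.

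Regions were overlapped with genes by at least 1 bp in Python (3.11.15) with numpy (2.4.6), scipy (1.17.1) and matplotlib (3.10.9). Equal numbers meant the 122532 regions of highest −log10 p per list. Read totals are unknown. The background was solved from fold and p, assuming Poisson p values, and gave whole pileups (within 0.001 of −log10 p) for 100% of the regions used. Its lowest value in a list, divided by the width of the shortest region, gave the density. All regions ended within the hg38 chromosome lengths. Differences between library means were tested by two-sided exact permutation, for which 0.333 is the smallest p. Single genes and lists were described without a test.

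Named genes were protein-coding genes one-sided with all regions and with equal numbers. At the TSS they were the first 15 per mark by the lower of the replicate folds, over the body the first 10 by the lower region count, by coverage the first 10 by the gap between groups, and up to 4 per list and mark. The rest of the list members are given by count. Genes and lists were chosen with earlier results of these data known. Overlap counting was checked on simulated regions. Alternatives were fewer regions, q under 0.05, removal of input regions, summits, other windows and starts, protein-coding genes, either replicate and each replicate left out. A gene, a gene list and a sequence that the rules would name are not reported here.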

Additional observations from a re-analysis of the deposited data

How the results depend on the processing

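The propionyl share at the TSS (94.7%) kept its direction under each alternative: 97.5% with q under 0.05, 88.5% without regions over an input list, 92.8% by summits, 96.4% in protein-coding genes, 80.2% with either replicate, 96.3% and 91.5% with windows of 500 bp and 2 kb, 91.9% with any transcript start, and 82.3 to 94.95% with 1 library left out. Gene counts under these settings that moved by more than 1.5 times were 158 acetyl genes with q under 0.05, 578 without regions over an input list, 136 in protein-coding genes, 453 with the 2 kb window, and 9670 propionyl and 2392 acetyl genes with either replicate. Leaving out a library gave 6495 to 8428 propionyl and 448 to 1401 acetyl genes, since fewer lists had to meet the rule. Over the body the share (76.4%) was 89.0% with q under 0.05, 72.9% without regions over an input list, 72.0% by summits, 83.0% in protein-coding genes, 64.7% with either replicate, 70.9% after the first 1 kb, and 63.8 to 77.1% with 1 library left out. Body counts that moved were 449 acetyl genes with q under 0.05, 1465 propionyl and 300 acetyl in protein-coding genes, and 5430 and 2958 with either replicate, with 3495 to 4844 and 1386 to 1979 when a library was left out. With the 20000 strongest regions of each list, chosen after seeing the data, the TSS counts were 2950 and 184 (94.1%) and the body counts 2368 and 754 (75.8%).

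The library differences stayed positive under every alternative run. With 1 library left out they were 16.9 to 23.8 percentage points for genes with a TSS region, 13.3 to 17.3 for the TSS window and 5.73 to 8.85 for the body. Covered percentages have no value by summit, so that setting was run for genes with a TSS region alone (17.95 points). With the replicate number as a block the differences were the same, 20.3, 15.3 and 7.29 points, and the exact p cannot go below 0.5 with 2 pairs. The sources do not say that the replicate numbers pair the libraries, and 2 pairs are too few to check it. Of the 15 propionyl genes named at the TSS, 7 stayed one-sided by summits and 7 with any transcript start, and 11 without regions over an input list. Of the 15 acetyl genes, 14, 10 and 12 did. Regions not called at p 0.01 in these libraries cannot be told from regions without the mark.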
